A study of Mus musculus with 6 samples.

Results

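In 32D cells, the 4 genes described here carried 5 listed summits of N4-acetylcytidine (ac4C) pull-down. These genes were the Fc receptor genes Fcgr2b and Fcer1g, the interferon-induced gene Ifitm1 and the chemokine gene Pf4. By fold, 3 of them ranked 4, 6 and 7 in the authors' list, the last tied with another gene. The members were chosen by gene name, because of their tall summits, from 1 list of the authors that held 1876 summits on 1485 genes. Their folds and ranks are therefore a description and were not tested. Only 5.42% of the peak numbers were listed, by a filter that is not given, so ranks hold within the list.

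32D is a mouse bone marrow cell line that depends on interleukin 3 (IL-3). The labels give wild-type cells in medium with 10% fetal bovine serum and 10 ng/mL IL-3, and call the cell type lymphoblastocytes of the bone marrow. Poly(A) RNA was pulled down with an ac4C antibody (acRIP-seq), giving 2 libraries. The other 4 libraries were 2 pulled down with IgG as a control and 2 of input, and no treatment or mutant was compared. Judging by the entry names, both ac4C libraries were merged before 1 round of peak calling. No summit has a value per library, so there is no replicate error, and library depth is unknown.

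Receptors for the constant (Fc) part of antibodies let myeloid cells and mast cells respond to antibody-coated targets. Fcgr2b encodes the inhibitory IgG receptor, which carries an inhibitory motif (ITIM) in its own tail, and Fcer1g encodes the signalling chain with an activating motif (ITAM) that several activating Fc receptors share. Ifitm1 belongs to a family of small membrane proteins that interferon induces and that hinder virus entry. Pf4, platelet factor 4 or Cxcl4, is a CXC chemokine that megakaryocytes pack into platelet granules. ac4C is an acetylated cytidine that the enzyme Nat10 writes on RNA, and the study asked where it lies on mRNA in these cells.

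Each summit has a fold enrichment from the authors' peak caller, a ratio of the fragments piled up at the summit plus 1 to a background plus 1. All folds were whole multiples of 0.475, so each one gave a whole number of fragments, with 1 constant background of 1.11 fragments for every transcript. The fold has no term for the abundance of the mRNA or for input or IgG, and a tall summit can come from a transcript with many copies. The RNA came from whole cultures, so a strong signal in few cells and a moderate one in all cells cannot be told apart. The intervals below are exact 95% Poisson intervals of the fragment number and cover counting error only.

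Ifitm1 (ENSMUSG00000025491) had the tallest summit of the 4 genes. It lay at nt 603 of ENSMUST00000106042, in coding sequence, with a fold of 147 from 309 fragments (interval 276 to 345). It ranked 4 of 1876 summits and 2 of 900 in coding sequence, where only the mitochondrial gene mt-Nd4, at 261, stood higher. The fold was 14.1 times the median of 10.4 over coding summits. The 2 coding summits next below were those of the tubulin cofactor gene Tbca, with 201 fragments (interval 174 to 231), and of the gene Nudc, with 196 (170 to 225). Ifitm1 was chosen for its height, so these intervals are a description and no difference was tested.

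Pf4 (ENSMUSG00000029373) followed, with its summit at nt 524 of ENSMUST00000031320, in the 3' untranslated region. The fold was 125 from 263 fragments (interval 232 to 297), rank 6 of all summits and rank 3 of 843 in that region. Above it in the 3' untranslated region were Pkm, the pyruvate kinase gene, with 417 fragments and Shank1, the gene of a postsynaptic scaffold protein, with 338. Next below were Fcgr2b and Inpp4a, a lipid phosphatase gene with 224 fragments (196 to 255). The Pf4 interval overlapped those of Fcgr2b and Inpp4a, and the Shank1 interval was 303 to 376. Pf4 too was chosen for its height, so no difference was tested.

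Fcgr2b (ENSMUSG00000026656) was the 1 member of 4 with 2 listed summits, both on ENSMUST00000027966 and both in the 3' untranslated region. Over the whole list 20.1% of genes had 2 or more. The taller one, at nt 2500, had a fold of 111 from 233 fragments (interval 204 to 265), and shared rank 7 of all summits with the ferritin gene Fth1. The second, at nt 2718, had a fold of 24.2 from 50 fragments (interval 37.1 to 65.9) and rank 338. The first was 4.59 times as tall as the second by fold, and even the second was 2.12 times the median fold of 11.4 over all summits.

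Fcer1g (ENSMUSG00000058715) had the lowest highest summit of the 4 genes. Its summit at nt 438 of ENSMUST00000193973, in the 3' untranslated region, had a fold of 44.6 from 93 fragments (interval 75.1 to 114), rank 103 of all summits and rank 42 in its region. This was 3.62 times the median of 12.3 over 3' untranslated summits. The summits next to it in height were Ntrk3 and Rep15 with 94 fragments each, Selenow with 93 and Nopchap1 with 92. These genes are named because they were next in height, so their closeness to Fcer1g is by choice.

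**Figure D1:**
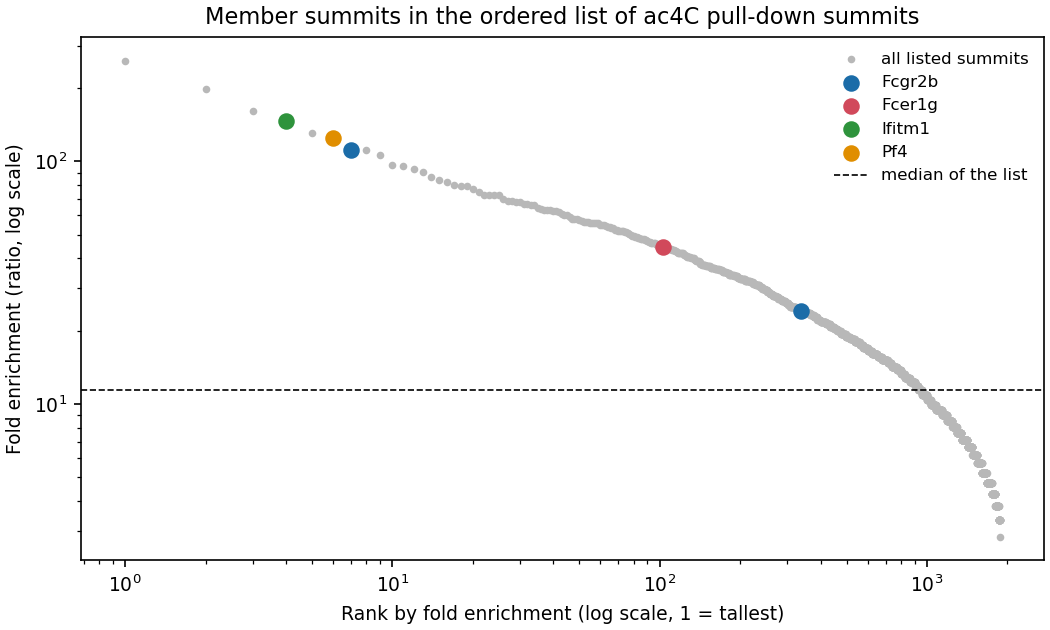
Fold enrichment (ratio, log scale) against rank (log scale) of all 1876 summits, in grey, with the member summits in colour and the median of 11.4 as a dashed line. Ifitm1, Pf4 and the taller Fcgr2b summit sit at ranks 4, 6 and 7, and Fcer1g and the second Fcgr2b summit at 103 and 338, all above the median.

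By fragment number the order was Ifitm1, Pf4, Fcgr2b, Fcer1g. Ifitm1 had 1.17 times the fragments of Pf4 and 1.33 times those of the taller Fcgr2b summit, and Pf4 had 1.13 times those of Fcgr2b. The counting intervals of Ifitm1 and Pf4 overlapped, as did those of Pf4 and Fcgr2b. The inhibitory receptor gene Fcgr2b had 2.51 times the fragments of the activating chain gene Fcer1g, which in turn had 1.86 times those of the second Fcgr2b summit. These ratios and intervals describe heights by which the genes were chosen, and no difference was tested. They compare pull-down and not the acetylated share of each mRNA, which was not measured.

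**Figure D2:**
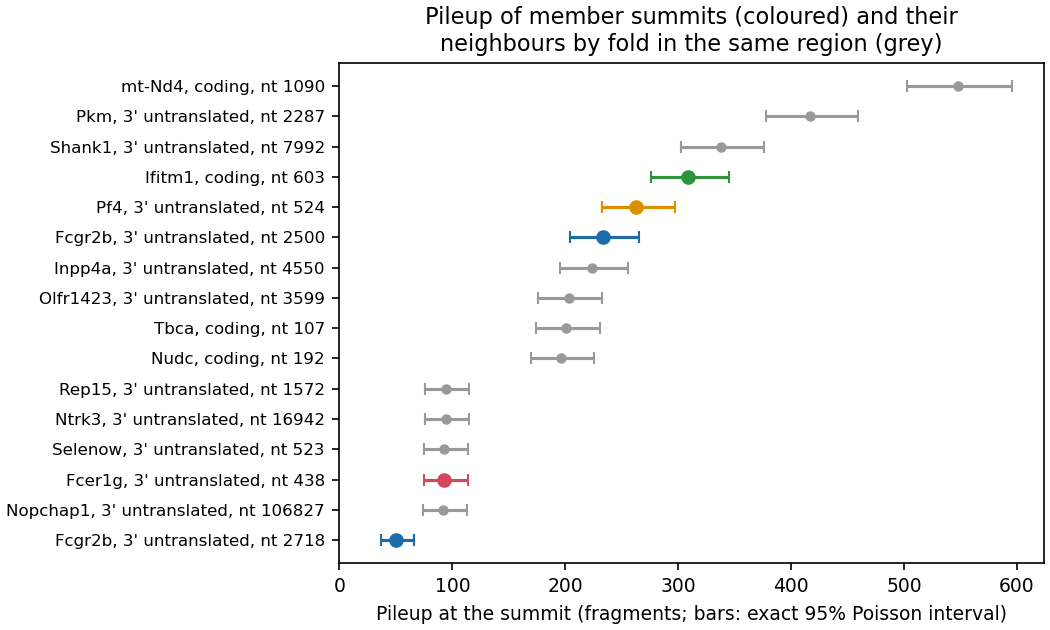
Fragments piled up at the summit (horizontal axis) for the 5 member summits, in colour, and for their neighbours by fold within the same region, in grey; bars are exact 95% Poisson intervals. The intervals of Pf4 (232 to 297) and Fcgr2b (204 to 265) overlap, and that of Fcer1g is 75.1 to 114. The members were chosen for their heights, so no difference was tested.

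The members differed in the nt position of the summit on the transcript. Pf4 and Fcer1g had summits at low nt positions for the 3' untranslated region, where the median position was nt 2236. A summit at or before nt 524 was found for 24 of 843 entries there, or 2.85%, and at or before nt 438 for 11, or 1.30%. Among those 24 early summits Pf4 was the tallest, followed by Dbi at a fold of 64.6, and the median of the other 23 was 14.2. Pf4's place follows from its rank, as the taller summits of the region, of Pkm and Shank1, lay at nt 2287 and nt 7992. Fcer1g was second of its 11, after S100a4 at 62.2. Transcript lengths were not used here, so a low nt position was not told apart from a short transcript. The distance of these summits from the transcript's end was not measured.

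The Fcgr2b summits, by contrast, lay in the middle of the range for the 3' untranslated region, with 56.6% of entries at or before the first and 62.8% at or before the second. Ifitm1 at nt 603 was also near the middle for coding summits, whose median was nt 730.5. It was the tallest of the 404 coding summits at or before its own position. This follows from its rank, as the only taller coding summit, of mt-Nd4, lay at nt 1090. Each member had its listed summits on 1 Ensembl transcript, while the gene table gives 4 RefSeq transcripts for Ifitm1, 2 for Fcgr2b and 1 each for Pf4 and Fcer1g. Ifitm1 has close relatives, and reads that fit several of them can be assigned to 1, so its height is uncertain in that respect.

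**Figure D3:**
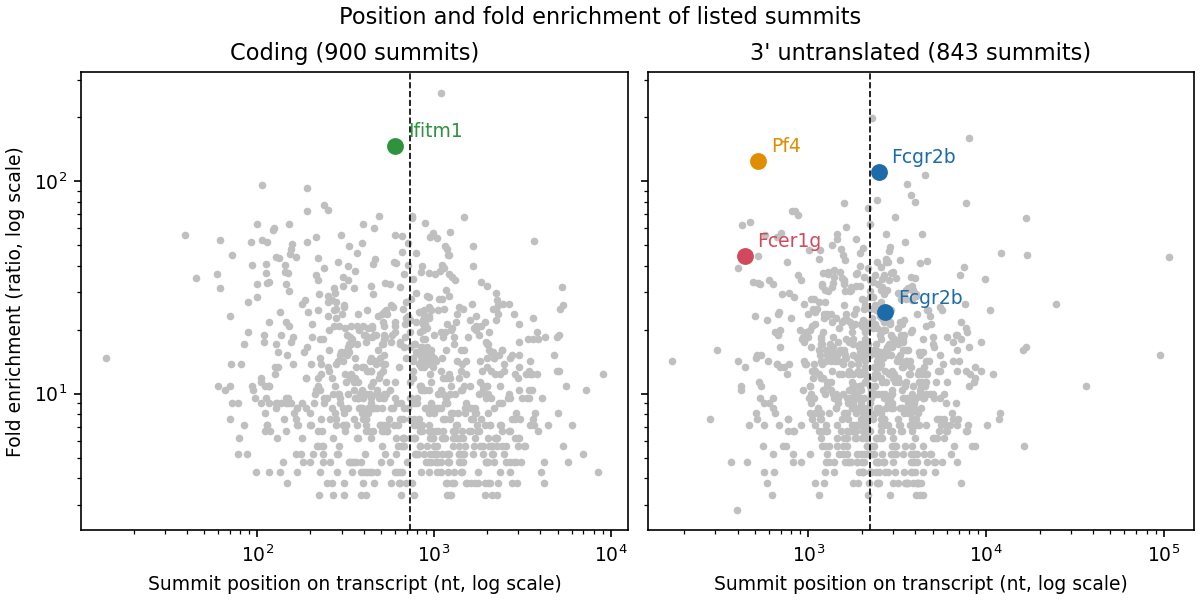
Fold enrichment (ratio, log scale) against summit position on the transcript (nt, log scale) for 900 coding summits, left, and 843 summits of the 3' untranslated region, right; dashed lines mark the median positions of 730.5 and 2236. Pf4 and Fcer1g stand at the left edge of the right panel, and Ifitm1 and both Fcgr2b summits near the dashed lines.

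The 2 Fcgr2b summits were 218 nt apart and belonged to 1 peak that the authors' caller had split. Of 146 transcripts with 2 or more listed summits, 49 had their 2 tallest in 1 peak, and in these the taller was typically 1.28 times as high as the next (median). The Fcgr2b ratio of 4.59 was the highest of the 49, and the next was 3.71. Over all 146 transcripts it ranked 5, with a median of 1.39 (quartiles 1.17 and 1.82) and a largest value of 10.9. Fcgr2b was chosen for a tall summit, which favours a high ratio, so these ranks are a description and were not tested. The gap of 218 nt was among the shorter ones, as 28 of 146 transcripts had one of that length or less and the median was 770 nt.

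All 5 member summits came from peaks split into several summits, which the entry names mark with a letter. Of all listed summits 497, or 26.5%, came from such peaks, and the share was higher among tall ones. It was 14 of the 20 highest folds, or 70.0%, and 65 of the next 80, or 81.2%, against 54.5% of the 400 after those and 14.5% of the remaining 1376. Without the member summits, the 20 highest folds gave 11 of 17, or 64.7%. The members' 5 of 5, of which 2 share the Fcgr2b peak, therefore stands beside a high share in other tall summits. Their letters imply at least 9 summits in the 4 peaks, of which 5 are listed, with 2 of at least 2 for Fcgr2b, 1 of at least 3 for Pf4 and 1 of at least 2 each for Ifitm1 and Fcer1g. The heights of the other summits in these peaks were not analysed here.

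In lists of related genes and cell markers, 14 of 257 genes other than the members had a listed summit, or 5.45%, near the 6.71% of all protein-coding genes in the gene table. Their highest folds had a median of 7.83 and ran from 3.80 to 41.8, whereas the median over all 1485 genes was 12.3. A gene without a listed summit may be unexpressed, unacetylated or left out of the list by the authors' filter, and expression was not measured.

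Of 18 genes of Fc receptors and related antibody-binding proteins, 3 had a summit, or 16.7% beside 6.71% of all protein-coding genes. Without the chosen members it was 1 of 16. Besides Fcgr2b and Fcer1g the gene with a summit was Pigr, whose protein carries polymeric antibodies across epithelia, with a fold of 28.0 in its 3' untranslated region. No summit was listed for the activating IgG receptor genes Fcgr1, Fcgr3 and Fcgr4, nor for the IgE receptor chain genes Fcer1a and Ms4a2, whose proteins assemble with the Fcer1g chain. Fcgr3 and Fcgr4 are the next protein-coding genes on one side of Fcgr2b in the gene table, and of these 3 genes Fcgr2b was the one with listed summits.

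Downstream of Fc receptors, 6 of 27 signalling genes had a summit, or 22.2% beside 6.71% of all protein-coding genes, expressed or not. The list was written with earlier results of these data known, so this share is a description and was not tested. The median highest fold of the 6 genes was 6.65, below the 12.3 over all genes with a summit. Ptpn6, which encodes the phosphatase SHP-1 that ITIM receptors recruit, had 3, with folds of 16.6 and 12.3 in the 3' untranslated region and a coding summit of 5.70. Lyn, the kinase gene whose product phosphorylates both motifs, also had 3, with 16.1 in the 5' untranslated region and 8.07 and 7.12 in the 3' untranslated region. The Ptpn6 and Lyn summits lay on 2 transcripts each, so some may be 1 site counted again. Coding summits were listed for the kinase gene Btk at 7.59, the exchange factor gene Vav1 at 5.70 and the lipid kinase gene Pik3cd at 3.80. Pik3r1, the regulatory subunit gene, had 4.75 in its 3' untranslated region.

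Syk, the kinase that binds phosphorylated ITAMs, and Inpp5d, which encodes the lipid phosphatase SHIP1 that acts for the Fcgr2b protein, had no listed summit. Among 25 other receptors and adaptors with such motifs 1 had a summit, beside 6.71% of all protein-coding genes. This was Tyrobp, which encodes the ITAM adaptor DAP12 of other myeloid receptors. Its summit lay in the 3' untranslated region at nt 505 with a fold of 8.07 from 16 fragments, against 44.6 from 93 fragments for Fcer1g. Both adaptor genes thus had a 3' untranslated summit at a low nt position in a split peak, at very different heights. Transcript lengths were not used, so the place of these summits within their transcripts was not measured. The list of 25 does not hold every gene with such motifs. Pilra, an ITIM receptor gene outside it, had a summit of 9.97 in its 3' untranslated region, above that of Tyrobp.

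Ifitm1, a chosen member, was the 1 gene of 7 in its family with a summit, or 14.3% beside 6.71% of all protein-coding genes. Its nearest protein-coding neighbours in the gene table, Ifitm2 and Ifitm3, had none listed. Of 31 interferon-induced genes 2 had a summit, or 6.45%, near the 6.71% of all protein-coding genes, and both were low. These were Rsad2, an antiviral enzyme gene, at 6.65, and Adar, the RNA editing enzyme gene, at 3.80, each in the 3' untranslated region. The list does not hold every interferon-induced gene, so the low folds describe the list only. Several such genes outside it had taller summits in the 3' untranslated region. Among them were Samhd1 at 47.0, H2-K1 at 43.2, Casp4 at 37.5 and Tap2 at 29.9.

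Pf4, a chosen member, was the 1 chemokine gene of 27 with a summit, or 3.70% beside 6.71% of all protein-coding genes. Its neighbours Ppbp, Cxcl5, Cxcl3, Cxcl15 and Cxcl1, which also encode CXC chemokines, had none listed. Pf4 was also the 1 of 18 megakaryocyte and platelet markers with a summit, or 5.56%, and Itga2b, Itgb3 and Gp9 had none. Of 14 chemokine receptor genes 1 had a summit, or 7.14%, which was Cx3cr1, the fractalkine receptor gene, at 13.3. Ccr4, a chemokine receptor gene outside that list, had a summit of 35.6 in its 3' untranslated region. Of 20 genes for granule proteoglycans and secretion, Cd63, a tetraspanin gene of granule membranes, had a coding summit of 25.6, and Srgn, which encodes the proteoglycan core that holds Pf4 in granules, had none listed.

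**Figure D4:**
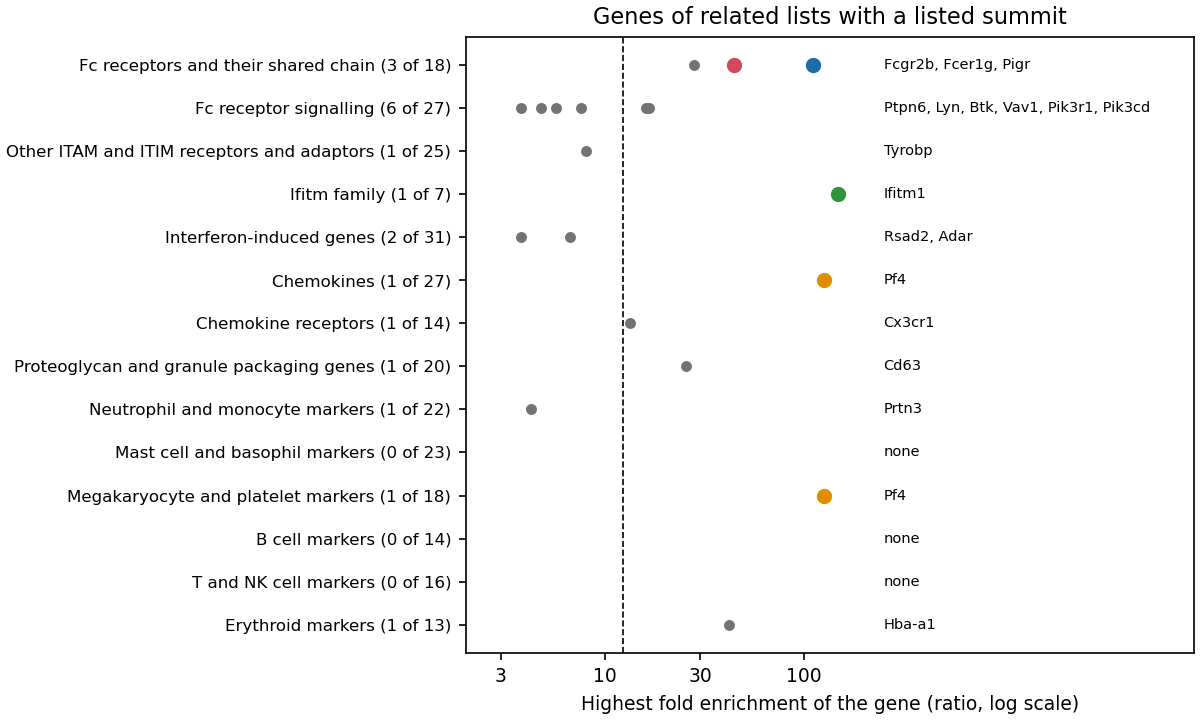
Highest fold enrichment (ratio, log scale) of each gene with a listed summit in 14 lists, with the number of genes in brackets, gene names in order of fold and the median of 12.3 over all 1485 genes as a dashed line. The members, in colour, lie between 44.6 and 147, and the other genes, in grey, between 3.80 and 41.8.

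Markers of blood cell types were looked up as well. A summit was listed for 1 of 22 neutrophil and monocyte markers, the granule protease gene Prtn3, at a fold of 4.27 in coding sequence. For mast cells and basophils, in which the Fcer1g chain serves the IgE receptor, it was 0 of 23. It was 1 of 13 for erythroid markers, Hba-a1 at 41.8, which has a near-identical copy, and 0 for 14 markers of B cells and 16 of T and NK cells. These counts stand beside the 6.71% of all protein-coding genes, and with so few genes per list they neither bear out nor go against the labelled cell type.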

How the data were processed

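Per the submitters' processing notes, cutadapt, Bowtie2, MACS2 and the build GRCm39 were used; versions, parameters, the control for peak calling and the filter on the list are not given in the sources used here. What the authors deposited was a single list of summits. Per the file headers, it gives each summit's fold enrichment, which is a ratio, with its p-value and q-value on a −log10 scale. The numbers of the peaks in the list ran to 33651, of which 5.42% were listed. Summits were selected by gene symbol. Fragments at a summit were recovered from the fold (whole multiples of its step within 0.00104 of a step), with exact Poisson intervals. The recovery was tested on simulated data. Binomial intervals of shares were exact. Ranks count the summits above, and ties share a rank. PCR copies are not independent, so intervals cover counting error only.

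Names and gene order came from RefSeq's genes on GRCm38.p6 (1475 of 1485 matched; 1 entry of the related lists did not). The members and the 14 related lists were chosen with earlier results of these data known. The genes named are the members, the 2 summits next above and below each in its region, and the list genes with a summit. List genes without one, genes outside the lists, gene neighbours and the tallest early summits were named after the values were seen. The planned comparison with input and IgG was not run, because the list holds no value per library. No RNA sequence was used. Python 3.11.15, SciPy 1.17.1 and pandas 2.3.3 were used.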

Additional observations from a re-analysis of the deposited data

How the results depend on the processing

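No paired analysis was possible because each summit has 1 value for both ac4C libraries together, and leaving out a replicate gave no value for the same reason. The share of summits at or above a member's highest fold was 0.213% for Ifitm1, 0.320% for Pf4, 0.426% for Fcgr2b and 5.54% for Fcer1g. It stayed within its 95% binomial interval when genes were counted in place of summits, within the same region, and in the order by −log10 q. With only the 1417 summits of −log10 q of 10 or more it moved for Fcer1g, to 7.34%, because fewer summits were counted. For Fcgr2b the lower summit gave 18.6%. Of the 261 genes in the related lists 18 had a summit, the members included, 12 in the stricter list and 10 with folds at or above the median. Over all genes of the gene table in place of protein-coding ones, the background was 2.95%, since that table holds many genes without a protein.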
